A study of Mus musculus with 9 samples.

Results

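The genes of the vacuolar proton pump (V-ATPase), of autophagy and of the lysosome were followed in RNA of the mouse retinal pigment epithelium (RPE). They were taken as every gene whose symbol starts with Atp6v, or with Atg and a digit, together with 15 listed autophagy and lysosome genes. Of 56 matching symbols, 54 had a summed raw count of at least 100 over the 9 libraries, out of 40202 genes in the deposited table. These 54 members comprised 21 V-ATPase genes, 18 Atg genes and the 15 listed genes. Atp6v1fnb and Atp6v1g3, with summed counts of 82 and 7, fell outside, and Atp6v1b1, Atp6v1c2 and Atg9b, with 306, 697 and 869, were the lowest inside.

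The samples fell into 3 groups of 3 libraries, all of wild-type mice. The first group was aged 24 months and had received vutiglabridin, a synthetic small molecule related to the licorice flavonoid glabridin, for 6 months. The second held aged controls of 24 months and the third young controls of 9 months. No strain, sex or dose is given in the sources used here, and nothing states that replicates are separate mice, so p-values measure only the spread between these samples. Per the labels' protocols, total RNA was extracted with TRIzol and made into libraries with a kit for stranded total RNA.

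Total counts ranged from 44196290 to 56797891 per library. Levels below are CPM (counts scaled to a common library size), computed from the deposited counts and edgeR's TMM-scaled library sizes. A CPM grows with the length of a gene, so it compares libraries and not genes. All 14 RPE identity genes averaged at least 1 CPM, and Rpe65, the retinoid isomerase of the RPE, stood at 2761, 1999 and 2104 CPM in treated, 2328, 2431 and 2075 CPM in aged control and 3004, 2829 and 3113 CPM in young control libraries. Markers of macrophages, endothelium, fibroblasts, rods, melanocytes and muscle were present too, so differences belong to the dissected sample and cannot be assigned to RPE cells. In such bulk samples, fewer cells of a type and less RNA per cell cannot be told apart. Treated replicate 2 stood apart, with a summed haemoglobin level of 5131 CPM, against 91.1 to 644 CPM in the other libraries, and the lowest summed level of RPE identity genes, 11683 CPM, against 15885 to 26286 CPM elsewhere. It also lay farthest out on the first axis of a multidimensional scaling of all libraries (-2.627), as young control 1 did on the second (-2.001). Treated replicate 3 had the highest summed rod level, 1243 CPM, against 560 to 915 CPM elsewhere.

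The V-ATPase is a rotary pump that acidifies lysosomes: its cytosolic V1 sector splits ATP and turns a ring in the membrane-bound V0 sector, which carries protons across. Autophagy delivers cytoplasm to the lysosome. The kinase Ulk1 starts it, the class III lipid kinase complex of Becn1 and Atg14 marks the site, Atg2 and Atg9 proteins bring lipid, and a conjugation cascade led by Atg7 attaches LC3 proteins to the growing membrane. RPE cells engulf shed photoreceptor outer segments every day and digest them in lysosomes, and LC3 conjugation also takes part in that uptake.

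Many lysosomal genes carry the CLEAR element, bound by the factors TFEB, TFE3 and MITF, in their promoters. Promoter windows from RefSeq (GRCm38.p6), matched by symbol, were given for 42 of the 54 members, in 47 windows. The palindromic core CACGTG, the same on both strands, lay in the 250 bases upstream of the start in 9 of these 47 windows (19.1%), against 1978 of 32851 windows of all genes (6.02%). Its longer form TCACGTGA, which contains the core, lay in 4 of 47 (8.51%), against 0.785% of all windows. Of the 11 members called in any comparison below, 7 had a window, and Atg7 alone of these held the core. The interferon-stimulated response element, searched on both strands as GAAA, any pair of bases and GAAA again, was held by 3 member windows (6.38%), those of Ctss, Lamp1 and Atp6v1d, against 2.98% of all windows. A match describes the letters only. The upstream windows of 4 members with the core, chosen for their roles, are given with that of Ctss, whose level differed most with age. The aspartic protease gene Ctsd lies on the minus strand with its window at chr7:142387828-142388077. The window of the lysosomal glycoprotein gene Lamp1 is chr8:13158911-13159160 on the plus strand. The calcium channel gene Mcoln1 has chr8:3500269-3500518 on the plus strand, and Atp6v1a, the catalytic V1 subunit, chr16:44139260-44139509 on the minus strand. The window of Ctss is chr3:95526536-95526785 on the plus strand. Each is given 5′ to 3′ along the gene and ends at the base before the start. Capitals mark CACGTG in the 4 genes listed first, and in Ctss the response element.
Ctsd: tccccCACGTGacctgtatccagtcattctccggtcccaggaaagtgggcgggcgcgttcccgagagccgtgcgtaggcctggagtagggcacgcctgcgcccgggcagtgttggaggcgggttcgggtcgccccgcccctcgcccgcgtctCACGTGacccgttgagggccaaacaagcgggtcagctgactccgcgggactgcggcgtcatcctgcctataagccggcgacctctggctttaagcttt
Lamp1: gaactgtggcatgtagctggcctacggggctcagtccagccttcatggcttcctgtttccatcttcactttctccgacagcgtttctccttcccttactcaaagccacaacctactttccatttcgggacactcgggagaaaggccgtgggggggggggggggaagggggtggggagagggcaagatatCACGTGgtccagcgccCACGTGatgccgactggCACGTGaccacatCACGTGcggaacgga
Mcoln1: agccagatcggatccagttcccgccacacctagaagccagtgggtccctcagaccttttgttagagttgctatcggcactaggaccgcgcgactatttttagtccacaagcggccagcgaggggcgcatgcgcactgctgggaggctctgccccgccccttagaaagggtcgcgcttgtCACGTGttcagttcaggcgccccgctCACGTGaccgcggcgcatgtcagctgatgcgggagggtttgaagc
Atp6v1a: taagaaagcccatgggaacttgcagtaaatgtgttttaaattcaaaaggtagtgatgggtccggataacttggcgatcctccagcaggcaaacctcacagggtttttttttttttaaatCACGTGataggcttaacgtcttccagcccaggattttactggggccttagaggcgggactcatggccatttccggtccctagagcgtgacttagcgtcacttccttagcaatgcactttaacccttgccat
Ctss: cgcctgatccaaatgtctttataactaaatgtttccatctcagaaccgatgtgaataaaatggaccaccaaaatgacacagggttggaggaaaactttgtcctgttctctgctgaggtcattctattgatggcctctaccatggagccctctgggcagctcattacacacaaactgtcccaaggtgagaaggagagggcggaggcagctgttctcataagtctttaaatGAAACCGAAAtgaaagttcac
Lamp1 held 4 copies of the core within 61 bases of its start, and Ctsd and Mcoln1 held 2 each. The match in Ctss began 21 bases before its start. In log2 fold change the 9 members with the core had a median of 0.07 in aged control over young control, 0.04 for the 33 with a window and no core. In treated aged over aged control these medians were -0.01 and 0.00, and in treated aged over young control 0.17 and 0.10.

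The first comparison set aged controls against young controls. The lysosomal protease gene Ctss and the V-ATPase isoform gene Atp6v0d2 were higher in aged RPE, and the other 52 members did not pass edgeR's test; DESeq2 called 3 higher and limma-voom 4. Calls were made at an adjusted p under 0.05 (edgeR's quasi-likelihood test, Benjamini-Hochberg over all 25273 genes tested). Higher calls were 2 of 54 members (3.7%), against a background of 1.48% of all genes called higher and 1.68% called either way. None was called lower by edgeR, with 3 at an unadjusted p under 0.05, while DESeq2 called 1 lower and limma-voom 2, against a background of 0.202% called lower by edgeR. Over all genes DESeq2 called 930 of 36387 either way and limma-voom 2031 of 25273. At an unadjusted p under 0.05 stood 8 members (14.8%), against a background of 11.7%. The median log2 fold change of the 54 members was 0.04, with 34 above 0, and that of all genes was -0.01. The 3 aged libraries lay above the 3 young libraries for 12 members (22.2%, background 13.2%) and below them for 5 (9.26%, background 12.1%).

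Among the lysosomal hydrolases, all 5 members had a log2 fold change above 0. Ctss encodes cathepsin S, the cysteine protease that trims the MHC class II invariant chain in antigen-presenting cells. Its level was 781, 765 and 722 CPM in aged control libraries, against 289, 419 and 223 CPM in young control libraries. The gene lies on chromosome 3 from 95434097 to 95463716 on the plus strand, in the deposited table's coordinates (GRCm39 by its chromosome versions). The groups were far apart, and the log2 fold change was 1.28 ± 0.20 (SE, n = 3 per group, adjusted p = 0.012). In treated libraries it was 759, 756 and 604 CPM. Ctsb encodes cathepsin B, a cysteine protease of the general lysosome. It had 987, 973 and 913 CPM in aged control libraries, against 702, 747 and 542 CPM in young control libraries. These groups did not overlap either, yet the difference of 0.53 ± 0.13 missed the threshold (adjusted p = 0.0987). DESeq2 and limma-voom called it, with adjusted p of 0.0134 and 0.00974. Ctsd, the aspartic protease cathepsin D, averaged 2639 ± 117 CPM (SD, n = 3) in aged control libraries, against 2167 ± 292 CPM in young control libraries, a log2 fold change of 0.28 ± 0.14 (adjusted p = 0.516). Hexa, the alpha subunit of beta-hexosaminidase, and Ctsl, the cysteine protease cathepsin L, differed by 0.20 ± 0.10 and 0.07 ± 0.13 (adjusted p = 0.488 and 0.912).

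All 4 lysosomal membrane genes also lay above 0, and none passed the test in edgeR, with 1 at an unadjusted p under 0.05, in DESeq2 or in limma-voom. Npc1, the exporter of cholesterol from the lysosome, had the smallest p. Its level was 100, 89.6 and 100 CPM in aged control libraries, against 70.9, 86.1 and 77.3 CPM in young control libraries (0.31 ± 0.09, adjusted p = 0.184). The groups did not overlap. Npc1 shares 8982 bases with Rmc1 on the opposite strand, and reads there cannot be told apart. Lamp1, Lamp2 and Mcoln1 differed by 0.20, 0.04 and 0.04.

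**Figure D1:**
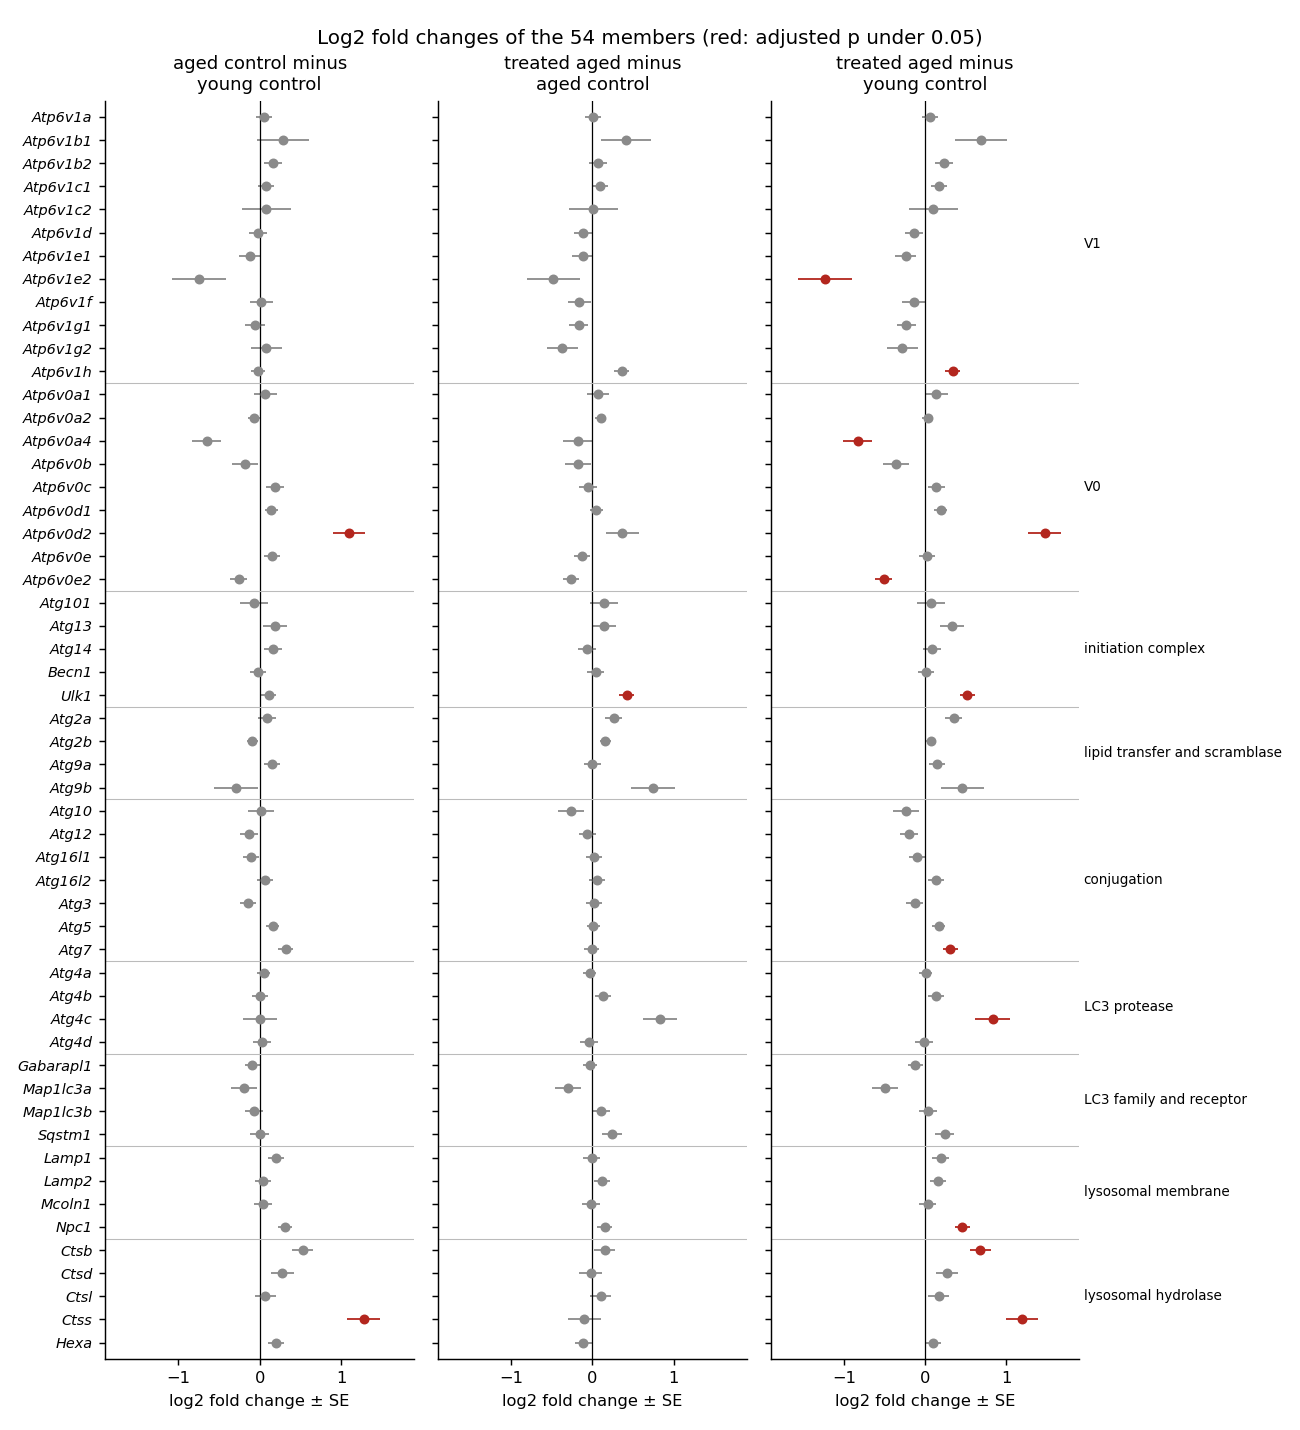
Log2 fold change ± SE of each of the 54 members (rows, grouped by role) in the 3 comparisons (columns), from edgeR's quasi-likelihood fit of 9 libraries. Red points passed an adjusted p of 0.05: 2 members in aged control over young control, 1 in treated aged over aged control and 11 in treated aged over young control.

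Among the 21 V-ATPase genes, 1 was called with age, the paralog gene Atp6v0d2. Subunit d of V0 has the common isoform d1 and the isoform d2, known from osteoclasts and macrophages. Atp6v0d2, on chromosome 4 from 19876838 to 19922566 on the minus strand, had 158, 142 and 162 CPM in aged control libraries, against 49.8, 91.8 and 74.1 CPM in young control libraries. No young library reached the aged ones, and the log2 fold change was 1.10 ± 0.20 (adjusted p = 0.0251). Atp6v0d1 averaged 88.4 ± 1.73 CPM in aged control libraries, against 80.0 ± 4.87 CPM in young control libraries (0.14 ± 0.08, adjusted p = 0.565). The spans of both genes are close, 45729 bases for Atp6v0d2 and 41604 bases for Atp6v0d1, so their levels were set side by side in the deposited FPKM, which divides by the whole gene span. On that scale Atp6v0d2 had 3.44 ± 0.253 FPKM in aged control and 1.57 ± 0.469 FPKM in young control libraries, and Atp6v0d1 had 2.17 ± 0.0317 and 1.92 ± 0.128 FPKM. The d2 share of the summed d1 and d2 FPKM was 62.0%, 58.9% and 63.0% in aged control libraries, against 37.7%, 49.6% and 45.6% in young control libraries. The difference of 17.0 percentage points had p = 0.1 in a two-sided exact permutation test, the smallest that 3 against 3 libraries can give.

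**Figure D2:**
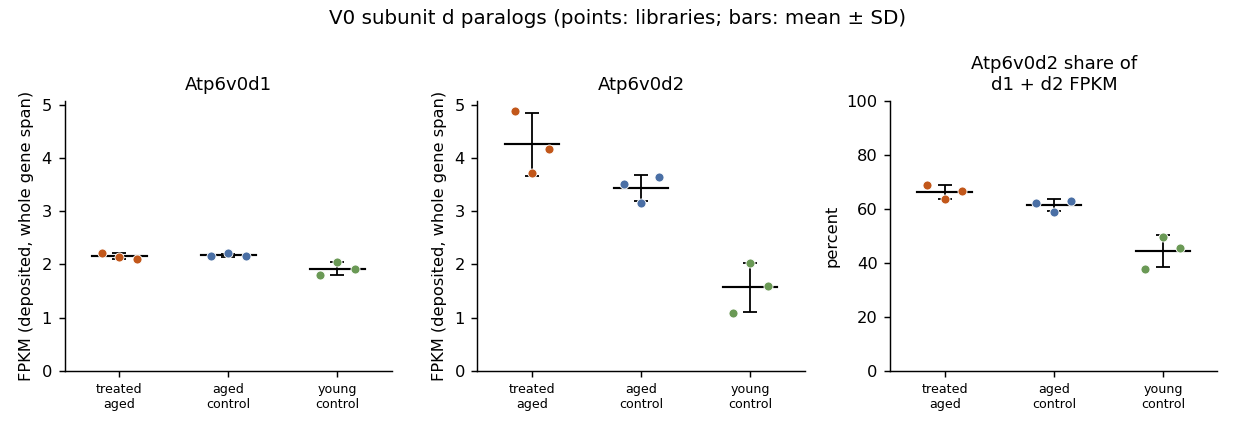
Deposited FPKM (per kilobase of gene span) of Atp6v0d1 and Atp6v0d2, and the percent share of Atp6v0d2 in their sum, in treated aged, aged control and young control libraries; points are libraries and bars are mean ± SD. Atp6v0d1 lies between 1.8 and 2.22 FPKM throughout, while Atp6v0d2 lies at 3.16 FPKM or more in both aged groups and at 2.02 FPKM or less in young controls.

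Some paralogs known from other organs had lower values in aged controls without passing the test. Atp6v0a4, the subunit a isoform of kidney and inner ear, had 2.13, 2.26 and 2.47 CPM in aged control libraries, against 3.52, 3.52 and 3.76 CPM in young control libraries (-0.65 ± 0.18, adjusted p = 0.125). The groups were well apart at this low level, and DESeq2 and limma-voom called it (adjusted p = 0.0266 and 0.00622). Its span overlaps that of the more abundant D630045J12Rik on the same strand by 1413 bases. Atp6v0e2, the subunit e isoform of brain, had 31.1, 28.7 and 26.8 CPM in aged control libraries, against 36.3, 35.5 and 31.6 CPM in young control libraries (-0.26 ± 0.10, adjusted p = 0.362). Atp6v1e2, the subunit E isoform of testis, had 4.96, 4.56 and 5.11 CPM in aged control libraries, against 10.3, 7.87 and 6.56 CPM in young control libraries. Its log2 fold change was -0.75 ± 0.33 (adjusted p = 0.41), and limma-voom called it. On the FPKM scale some tissue isoforms were rare beside the common one. Atp6v0a4 made up at most 1.02% of the summed subunit a FPKM in any library, Atp6v1b1 at most 1.35% of subunit B, Atp6v1c2 at most 1.87% of subunit C and Atp6v1g2 at most 7.83% of subunit G, counting the isoforms among the members only. Others were not rare on that scale. Atp6v0e2 averaged 6.97 ± 0.487 FPKM in aged control libraries, against 8.13 ± 0.652 FPKM in young control libraries, and Atp6v0e averaged 2.10 ± 0.0832 and 1.86 ± 0.215 FPKM in the same groups. Atp6v1e2 averaged 1.32 ± 0.0831 FPKM in aged control libraries, against 2.17 ± 0.500 FPKM in young control libraries, and Atp6v1e1 averaged 4.37 ± 0.317 and 4.63 ± 0.600 FPKM. The spans differ widely, 4233 bases for Atp6v0e2 and 23252 bases for Atp6v0e, 3779 bases for Atp6v1e2 and 27455 bases for Atp6v1e1, so a level per span sets the short genes higher for the same number of reads.

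No Atg gene passed the test with age in edgeR (0 of 18, with 1 at an unadjusted p under 0.05) or DESeq2, and limma-voom called 1, Atg7. Atg7, the activating enzyme of LC3 conjugation, had 103, 96.0 and 108 CPM in aged control libraries, against 76.5, 85.3 and 83.1 CPM in young control libraries (0.32 ± 0.09, adjusted p = 0.157). The aged libraries all lay higher. Atg5, which joins Atg12 in the conjugating enzyme, had 47.9, 47.4 and 44.3 CPM in aged control libraries, against 40.1, 40.9 and 44.1 CPM in young control libraries (0.16 ± 0.08, adjusted p = 0.47). Atg9a, a lipid scramblase, had 16.8, 14.6 and 16.2 CPM in aged control libraries, against 13.9, 13.4 and 15.5 CPM in young control libraries, so these groups overlapped (0.15 ± 0.10, adjusted p = 0.656). The LC3 family genes Map1lc3a, Map1lc3b and Gabarapl1 differed by -0.19, -0.07 and -0.09, and Sqstm1, which encodes the cargo receptor p62, by 0.00. Their adjusted p ran from 0.739 upwards.

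Macrophage markers were higher in the same comparison as Ctss and Atp6v0d2. Of 20 macrophage and microglia markers, 10 were called higher in aged controls, with a median log2 fold change of 0.84. Their summed level was 4079 to 4522 CPM in aged control libraries and 1654 to 2741 CPM in young control libraries, and none of the 20 was at 0 in any library. Lyz2, the macrophage lysozyme gene, made up 66.8% of the sum. Within groups the highest Atp6v0d2 level stood beside the highest sum in treated libraries (237 and 4534 CPM) and in young control libraries (91.8 and 2741 CPM). In aged controls its highest level, 162 CPM, stood beside the lowest sum, 4079 CPM. The libraries of each of the 3 groups had the same order in Ctss as in the sum. The same was true of Ctsb, which edgeR did not call with age. In treated libraries the sum was 4534, 4275 and 3577 CPM. Other lists moved too. Of 17 lymphocyte and plasma cell markers 6 were called higher (median 1.17), with sums of 23.4 to 33.2 CPM in aged control libraries and 13.7 to 16.3 CPM in young control libraries. Of 9 choroidal melanocyte markers 2 were called lower (median -0.43), with sums of 4352 to 4703 CPM in aged control libraries and 5794 to 6549 CPM in young control libraries. The part of these lists in the differences was not tested. DESeq2 and limma-voom called both Ctss and Atp6v0d2, while edgeR lost both calls without aged control 1, 2 or 3. Over all genes those fits called 73, 148 and 132 either way, against 424 with all libraries. For Ctss, dropping each aged control library in turn gave adjusted p of 0.0653, 0.0526 and 0.0503, and dropping young control 1 gave 0.0661. For Atp6v0d2, dropping each aged control library gave 0.115, 0.0727 and 0.113, and dropping young control 3 gave 0.114. Over all 9 such fits the log2 fold change of Ctss stayed between 1.09 and 1.57 and that of Atp6v0d2 between 0.89 and 1.32.

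**Figure D3:**
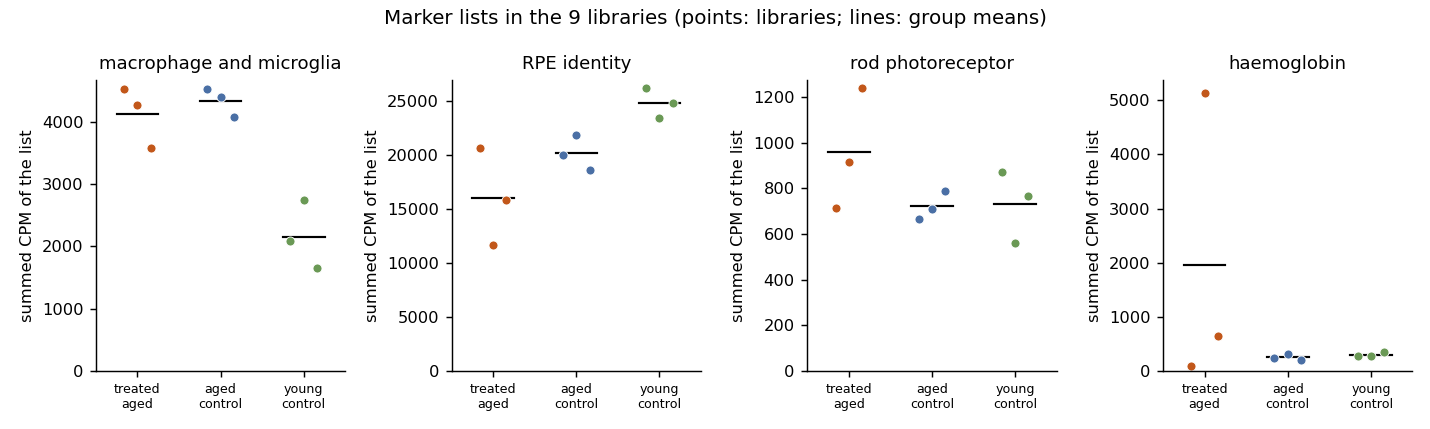
Summed CPM of 4 marker lists in treated aged, aged control and young control libraries; points are libraries and lines are group means. The macrophage and microglia sum lies at 3577 CPM or more in both aged groups and at 2741 CPM or less in young controls, the RPE identity sum is lowest in treated replicate 2, and the haemoglobin sum of that library is 5131 CPM.

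The second comparison set treated aged mice against aged controls, and so shares its controls with the first. In edgeR's test Ulk1 was higher in treated RPE and the other 53 members did not pass; DESeq2 and limma-voom each called 3 higher, Ulk1, Atp6v1h and Atg4c. Higher calls by edgeR were 1 of 54 (1.85%), against a background of 2.37% of all genes called higher and 4.34% called either way, so the share of members was near or under that of genes in general. Lower calls were 0 of 54 by edgeR, with 1 at an unadjusted p under 0.05 and 0 by DESeq2 and by limma-voom, against a background of 1.97% in edgeR. Over all genes DESeq2 called 3010 of 36387 either way and limma-voom 2718 of 25273. At an unadjusted p under 0.05 stood 7 members (13.0%), against a background of 24.7%. The median log2 fold change was 0.01 over the members and -0.01 over all genes. Treated libraries all lay above the aged control libraries for 9 members (16.7%, background 14.7%) and all below for 3 (5.56%, background 17.5%).

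Ulk1, the kinase that starts autophagy, had 46.5, 44.9 and 42.0 CPM in treated libraries, against 32.4, 30.4 and 37.3 CPM in aged control libraries. Young control libraries had 30.1, 30.5 and 32.3 CPM. The table places the gene on chromosome 5 from 110932355 to 110957991 on the minus strand. The 3 treated libraries were the highest of the 9, and the log2 fold change over aged controls was 0.42 ± 0.09 (adjusted p = 0.0404). Its partners in starting autophagy showed smaller differences that did not pass. Atg13, the scaffold of the Ulk1 complex, differed by 0.14 and its partner Atg101 by 0.14, Becn1 by 0.04 and Atg14 by -0.07. The Ulk1 call was kept in 2 of 9 fits that leave out 1 library, those without treated replicate 3 and without young control 1. Dropping treated replicate 1 or 2 gave an adjusted p of 0.0804 or 0.0747, dropping each aged control library 0.171, 0.186 and 0.0828, and dropping young control 2 or 3 0.0745 or 0.0589. With total counts as library sizes it was 0.052. Over all genes the fits without aged control 1, 2 or 3 called 35, 25 and 63 with treatment, against 1098 with all libraries.

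Atp6v1h encodes subunit H, the regulatory subunit that couples ATP splitting in V1 to V0. The gene spans chromosome 1 from 5153201 to 5233438 on the plus strand. Its level was 150, 144 and 120 CPM in treated libraries, against 109, 109 and 106 CPM in aged control libraries. Young control libraries had 112, 108 and 107 CPM. All treated libraries were above all others, and the controls of both ages lay within 6 CPM of each other. The log2 fold change over aged controls was 0.36 ± 0.09 and just missed the threshold (adjusted p = 0.0555). It passed in 6 of 11 other settings, DESeq2 (0.0092) and limma-voom (0.011) among these, and reached 0.0976 in the rest. Of 9 fits without 1 library it passed in 1, without treated replicate 3 (0.00252), and reached 0.199 without aged control 1. Over all genes the fit without treated replicate 3 called 4092 of 25724 with treatment, against 1098 of 25273 with all libraries. That without aged control 1 called 35 of 25805. In aged over young controls the difference was -0.02 ± 0.09. No other V1 gene reached an unadjusted p of 0.05 in this comparison, and the 12 V1 genes had a median of -0.05.

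Atg4c, a protease that trims and releases LC3 proteins, had 157, 137 and 77.0 CPM in treated libraries, against 68.3, 68.3 and 72.2 CPM in aged control libraries. Young control libraries had 65.0, 71.5 and 71.8 CPM. Treated replicate 1 and 2 were about as high as each other, and treated replicate 3 lay close to the controls. The log2 fold change over aged controls was 0.83 ± 0.21 (adjusted p = 0.0555), and 1.09 without treated replicate 3 (adjusted p = 0.000149). It passed in DESeq2 (0.00231), in limma-voom (0.0066), with upper quartile size factors (0.0457) and when genes had to reach 1 CPM in 3 libraries (0.0398). These were 4 of 11 other settings. Of 9 fits without 1 library, Atg4c passed in 1, without treated replicate 3, and reached 0.201 without aged control 2. The latter fit called 25 of 25829 genes over all. The same split ran through Atg10, the enzyme that hands on Atg12, in the opposite direction, with 80.7, 87.1 and 132 CPM in treated libraries, against 123, 114 and 122 CPM in aged control libraries. This gene, named after its values were seen, had a log2 fold change of -0.26 ± 0.16 (adjusted p = 0.333). Atg4c and Atg10 have long spans of 108315 and 288723 bases, with no overlapping gene, and the counts are per whole span. The other LC3 proteases Atg4a, Atg4b and Atg4d differed by -0.03, 0.13 and -0.04.

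Of the 4 lipid-supply genes, 3 were higher at an unadjusted p under 0.05. Over all genes 3158 of 25273 were higher at that threshold, and 24.7% stood there either way. None of the 4 passed the adjusted test in edgeR, DESeq2 or limma-voom. Atg2a, a lipid transfer protein gene, had 23.8, 19.9 and 19.8 CPM in treated libraries, against 17.1, 17.5 and 18.5 CPM in aged control libraries (0.26 ± 0.11, adjusted p = 0.178). The groups did not overlap. Atg9b, the scarcer scramblase gene, had 2.44, 3.28 and 1.89 CPM in treated libraries, against 1.55, 1.29 and 1.68 CPM in aged control libraries (0.75 ± 0.27, adjusted p = 0.123). Without treated replicate 3 its adjusted p was 0.041, the 1 pass among 9 fits without 1 library. Atg9b overlaps Nos3, the endothelial nitric oxide synthase gene, by 294 bases on the opposite strand, and Nos3 had 1362, 1581 and 1262 raw counts in treated libraries, against 972, 882 and 1049 in aged control libraries. Reads in that stretch cannot be told apart.

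Cargo receptor and LC3 genes did not pass. Sqstm1 had 343, 348 and 257 CPM in treated libraries, against 271, 274 and 259 CPM in aged control libraries, so treated replicate 3 again lay with the controls (0.24 ± 0.12, adjusted p = 0.257, and 0.0225 without that library). Map1lc3a had 28.1, 23.9 and 22.7 CPM in treated libraries, against 29.9, 35.0 and 27.4 CPM in aged control libraries, and the groups overlapped (-0.30 ± 0.16, adjusted p = 0.263). Map1lc3b and Gabarapl1 differed by 0.11 ± 0.11 and -0.03 ± 0.09. Among V-ATPase genes, Atp6v0e2 had 26.9, 22.4 and 23.3 CPM in treated libraries, against 31.1, 28.7 and 26.8 CPM in aged control libraries (-0.26 ± 0.10, adjusted p = 0.163). Atp6v1g2, the subunit G isoform of neurons, had 3.23, 2.17 and 3.61 CPM in treated libraries, against 3.84, 3.65 and 4.13 CPM in aged control libraries (-0.37 ± 0.19, adjusted p = 0.269). All 3 treated libraries lay below the aged controls for Atp6v1g2, and 2 of 3 did for Atp6v0e2. Atp6v1g2 overlaps Nfkbil1 on the opposite strand by 1548 bases.

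The genes called with age did not pass the test between treated aged and aged control libraries. Ctss differed by -0.10 ± 0.20 between treated aged and aged control libraries (adjusted p = 0.792). Atp6v0d2 had 237, 173 and 188 CPM in treated libraries, all above the aged control libraries, a difference of 0.37 ± 0.20 that did not pass (adjusted p = 0.274). Its d2 share was 68.8%, 63.5% and 66.4% in treated libraries, against 62.0%, 58.9% and 63.0% in aged control libraries, 4.93 percentage points higher (two-sided exact permutation p = 0.1, the smallest possible). The hydrolases Ctsd, Ctsb, Ctsl and Hexa differed by -0.02, 0.15, 0.10 and -0.11, with adjusted p from 0.516 upwards. A p that misses the threshold does not show equal levels: the SE of these differences was 0.10 to 0.14 on the log2 scale.

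**Figure D4:**
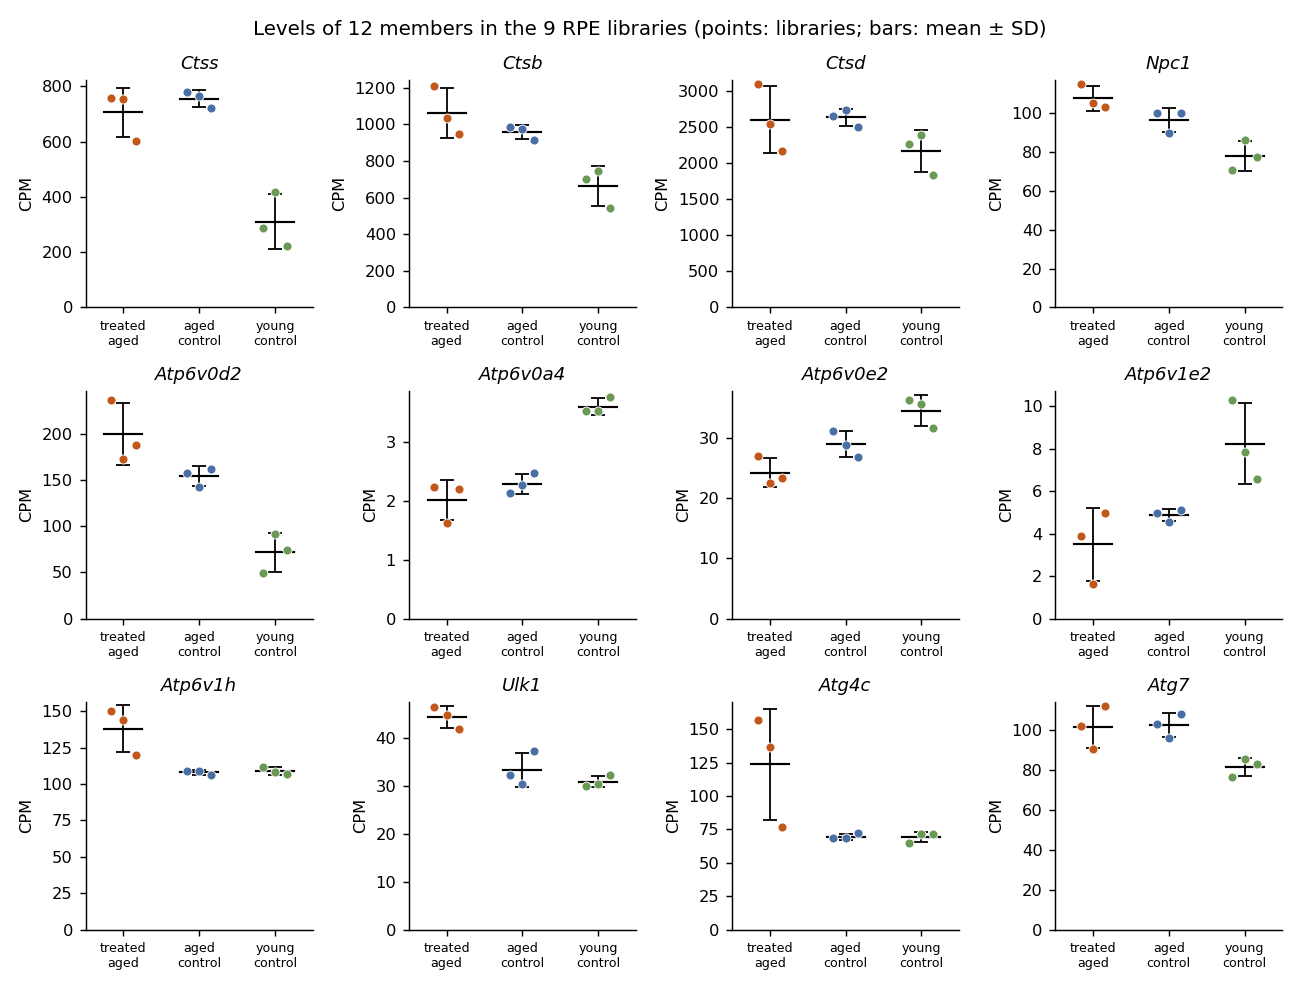
CPM of 12 members in treated aged, aged control and young control libraries. Points are libraries and bars are mean ± SD (n = 3). Every library of both aged groups lies above every young control for Ctss, Ctsb, Npc1, Atp6v0d2 and Atg7. Of these, Ctss and Atp6v0d2 passed edgeR's test in aged control over young control. Every treated library lies above all others for Ulk1, Atp6v1h, Atg4c, Npc1 and Atp6v0d2, with treated replicate 3 of Atg4c at 77.0 CPM.

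The third comparison set treated aged mice against young controls, so age and treatment cannot be told apart in it. Of the 54 members, 8 were higher (14.8%, background 9.01%) and 3 lower (5.56%, background 7.69%). In all, 11 members (20.4%) were called by edgeR, against 16.7% of all genes, so the share of members was near the background. DESeq2 called 9 members higher and 4 lower, and limma-voom 8 higher and 3 lower. Over all genes DESeq2 called 5818 of 36387 either way and limma-voom 3831 of 25273. At an unadjusted p under 0.05 stood 17 members (31.5%), against a background of 34.2%. Treated libraries all lay above the young ones for 13 members (24.1%, background 15.9%) and all below for 4 (7.41%, background 17.3%). The median log2 fold change of the members was 0.10, with 38 above 0, and that of all genes -0.01.

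Lysosomal genes made up part of the higher calls. Ctss differed by 1.19 ± 0.20 (adjusted p = 0.00622). Ctsb had 1210, 1033 and 945 CPM in treated libraries, against 702, 747 and 542 CPM in young control libraries, every treated library being higher (0.68 ± 0.13, adjusted p = 0.0112). Npc1 had 115, 105 and 103 CPM in treated libraries, against 70.9, 86.1 and 77.3 CPM in young control libraries (0.46 ± 0.09, adjusted p = 0.0126). Its opposite-strand neighbour Rmc1 had 3391 to 3763 raw counts in treated libraries and 2264 to 3160 in young control libraries. The macrophage and microglia sum was 3577 to 4534 CPM in treated libraries and 1654 to 2741 CPM in young control libraries, with 10 of 20 markers called higher; its part in these differences was not tested. Calls of Ctss, Ctsb, Npc1, Atp6v0d2, Atp6v0a4 and Ulk1 were kept in all 9 fits that leave out 1 library. Without both treated replicate 2 and young control 1, Ctss had adjusted p = 0.069. In edgeR's fit of only the 2 groups compared, Ctsb, Npc1 and Atp6v0a4 lost their calls (adjusted p = 0.0544, 0.0533 and 0.0616).

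In the V-ATPase, 2 of 21 genes rose and 3 fell relative to young controls, beside 16.7% of all genes called either way. Atp6v0d2 differed by 1.47 ± 0.20 (adjusted p = 0.00329), a fold of 2.77, and its d2 share was 21.9 percentage points higher. Atp6v1h differed by 0.34 ± 0.09 (adjusted p = 0.0335). Atp6v0a4 had 2.23, 1.63 and 2.20 CPM in treated libraries, against 3.52, 3.52 and 3.76 CPM in young control libraries (-0.83 ± 0.18, adjusted p = 0.0149). This isoform was low in all libraries. Atp6v0e2 had 26.9, 22.4 and 23.3 CPM in treated libraries, against 36.3, 35.5 and 31.6 CPM in young control libraries (-0.51 ± 0.10, adjusted p = 0.0122, and 0.0523 without young control 2). Atp6v1e2 had 3.88, 1.63 and 4.98 CPM in treated libraries, against 10.3, 7.87 and 6.56 CPM in young control libraries, with treated replicate 2 lowest (-1.23 ± 0.33, adjusted p = 0.0341). For Atp6v1h the call was kept only without treated replicate 3, and the adjusted p was 0.0611 to 0.1 without each of the other 8 libraries. For Atp6v1e2 it was lost without treated replicate 1 (0.0586), aged control 1, 2 or 3 (0.0605, 0.0585 and 0.057) or young control 1 or 2 (0.112 and 0.0804). The 3 genes that fell are isoforms known from kidney, brain and testis. The RPE identity list moved too: its sum was 11683 to 20642 CPM in treated libraries and 23507 to 26286 CPM in young control libraries, with 5 of 14 genes called lower and 1 higher. Of 9 choroidal melanocyte markers, 7 were called lower and all were below 0 (median -0.67), with sums of 3582 to 4250 CPM in treated and 5794 to 6549 CPM in young control libraries. Of 15 endothelial markers 5 were called lower and 1 higher, of 10 fibroblast markers 2 lower, and of 17 lymphocyte and plasma cell markers 3 lower and 7 higher. Over all genes 9.01% were called higher and 7.69% lower. Other lists lay mostly above 0: 17 of 20 rod markers (median 1.01, 1 called lower) and all 12 skeletal muscle markers (1.32). The same held for 9 of 10 stratified epithelium markers (6.77, 1 called higher) and all 5 haemoglobin genes (3.02). The part of any list in the rises and falls of members was not tested.

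In the autophagy genes the calls were Ulk1, Atg4c and Atg7. Ulk1 differed by 0.52 ± 0.09 (adjusted p = 0.00795), a fold of 1.44. Atg4c differed by 0.83 ± 0.21 (adjusted p = 0.0275). This call was kept without treated replicate 3 and without aged control 2 or 3, and was lost without treated replicate 1 or 2 (0.0599 and 0.0815), aged control 1 (0.0506) or young control 1, 2 or 3 (0.0945, 0.0762 and 0.0646). Atg7 had 102, 90.6 and 112 CPM in treated libraries, against 76.5, 85.3 and 83.1 CPM in young control libraries (0.31 ± 0.09, adjusted p = 0.0456). It was kept only without treated replicate 2, with adjusted p of 0.0617 to 0.139 without each of the other 8 libraries. DESeq2 called it (0.0195) and limma-voom did not (0.0673), and it passed in 3 of 10 other settings. Atg7 overlaps Vgll4 on the opposite strand by 611 bases. Atg2a had 23.8, 19.9 and 19.8 CPM in treated libraries, against 16.5, 15.3 and 18.2 CPM in young control libraries, and just missed the threshold (0.35 ± 0.11, adjusted p = 0.0532). It passed in 7 of 11 other settings with all libraries or without a pair of them, DESeq2 (0.0254) and limma-voom (0.034) among these. Map1lc3a also missed it, with 28.1, 23.9 and 22.7 CPM in treated libraries, against 44.1, 30.6 and 30.7 CPM in young control libraries (-0.49 ± 0.16, adjusted p = 0.0573). DESeq2 called it lower and limma-voom did not. Atg5 had 46.8, 47.5 and 46.6 CPM in treated libraries, against 40.1, 40.9 and 44.1 CPM in young control libraries, without overlap (0.17 ± 0.08, adjusted p = 0.137).

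**Figure D5:**
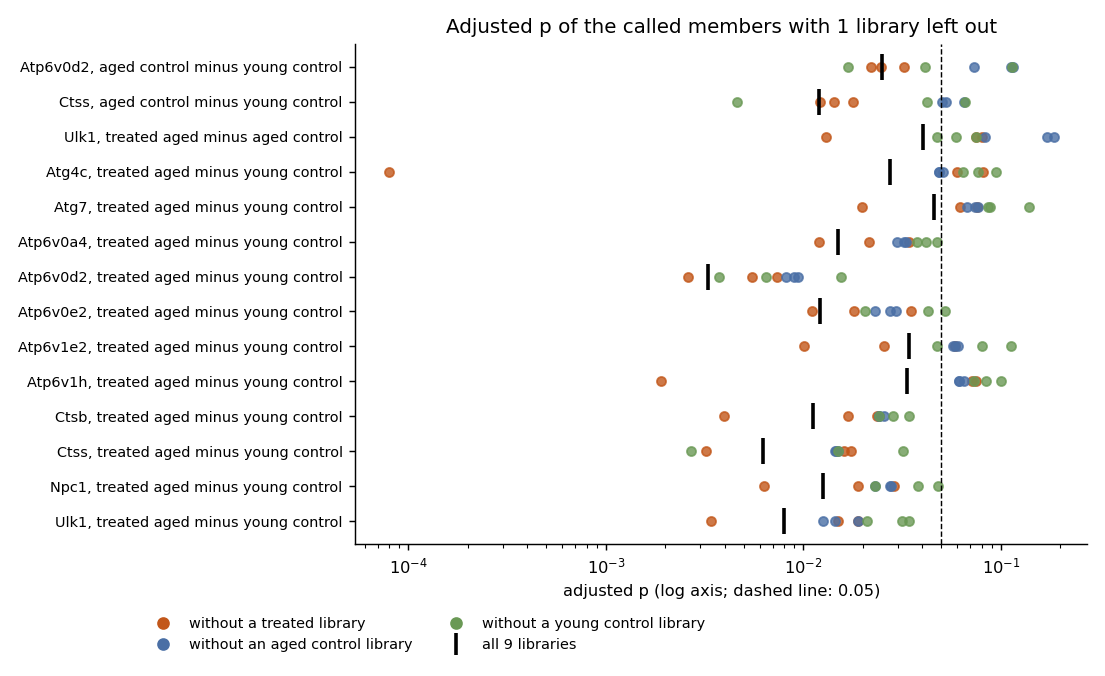
Adjusted p (log axis) of each called member and comparison with all 9 libraries (black bars) and with 1 library left out (points, coloured by the group of the library left out); the dashed line is 0.05. Ulk1 in treated aged over young control stays at 0.0344 or below, while Ulk1 in treated aged over aged control reaches 0.186.

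Across all 9 libraries the highest library was under 1.5 times the lowest for 31 of the 54 members (57.4%), against 34.9% of the 20657 tested genes in the members' range of mean CPM. The median ratio was 1.44 for the members and 1.69 for those genes, and 9 members were over 2. That range runs from 0.686 to 2471 CPM, and genes within it were not matched to the members by level. These shares and medians therefore do not compare genes of equal level. The steadiest member was Atg4a, at a ratio of 1.13. Becn1, which anchors the lipid kinase complex, ranged from 44.9 to 59.9 CPM in treated, 49.7 to 53.3 CPM in aged control and 49.5 to 53.9 CPM in young control libraries. Lamp2, the lysosomal membrane glycoprotein of chaperone-mediated autophagy, ranged from 391 to 476, 376 to 418 and 358 to 417 CPM in the same groups. Atp6v0a1, the common subunit a isoform, named after its values were seen, spread more widely among treated libraries, with 218, 138 and 176 CPM in treated libraries, against 169, 166 and 174 CPM in aged control libraries.

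Further genes of the same pathways came from 4 lists. Of 44 measured lysosomal hydrolases, cofactors and inhibitors outside the members, 2 rose in aged controls over young controls and none fell in edgeR, with 16 higher and 1 lower at an unadjusted p under 0.05, 5 higher and 0 lower in DESeq2, and 11 higher and 1 lower in limma-voom. Over all genes edgeR called 1.48% higher, and 11.7% stood at an unadjusted p under 0.05. The median log2 fold change of the 44 was 0.16, with 36 above 0, against -0.01 for all genes. The 2 were Man2b1, the lysosomal alpha-mannosidase (0.46 ± 0.09, adjusted p = 0.0331), and Acp5, the tartrate-resistant acid phosphatase known from osteoclasts and macrophages (1.19 ± 0.25, adjusted p = 0.0481). With treatment, set against aged controls, none passed in edgeR, with 1 higher and 11 lower at an unadjusted p under 0.05, and DESeq2 and limma-voom each called 1 higher, Lgmn. The background at an unadjusted p in edgeR was 24.7%. The median there was -0.16, with 35 of 44 below 0; this comparison shares the aged controls with the first. Some marker lists also lay mostly below 0 there. These were 11 of 14 RPE identity genes (median -0.28) and 8 of 9 choroidal melanocyte markers (median -0.23). So did 14 of 20 macrophage markers (median -0.08, 1 called lower) and 14 of 17 lymphocyte markers (median -0.37, 4 called lower). Other lists lay mostly above 0: 18 of 20 rod markers (median 0.73), 11 of 15 endothelial (0.15) and 10 of 12 skeletal muscle markers (0.24). The same held for 9 of 10 stratified epithelium markers (3.60) and all 5 haemoglobin genes (3.26). Fibroblast markers had a median of 0.04. Their part was not tested. Against young controls, where 16.7% of all genes were called, 7 rose and 4 fell in treated mice, among them Lgmn, the asparagine endopeptidase (0.65 ± 0.11, adjusted p = 0.00638), Gla, the alpha-galactosidase (0.66 ± 0.12, adjusted p = 0.00726), and Ctsf, cathepsin F (-0.69 ± 0.12, adjusted p = 0.00739).

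Of 49 tested genes of the lysosomal membrane, its trafficking and V-ATPase assembly, 3 rose in aged controls over young controls and none fell in edgeR, with 10 higher and 2 lower at an unadjusted p under 0.05, 6 higher and 0 lower of 50 in DESeq2, and 8 higher and 1 lower in limma-voom. The 3 in edgeR were Laptm5 (1.02 ± 0.15, adjusted p = 0.00863) and Cd68 (0.87 ± 0.14, adjusted p = 0.0116), both also on the macrophage list, and Slc11a1, a metal transporter of phagocyte lysosomes (0.74 ± 0.13, adjusted p = 0.019). With treatment, 1 rose over aged controls, Gnptab, the enzyme that tags hydrolases with mannose 6-phosphate. It had 77.4, 67.5 and 73.5 CPM in treated libraries, against 53.0, 50.1 and 55.1 CPM in aged control libraries, a clear gap (0.47 ± 0.10, adjusted p = 0.0335). DESeq2 called 4 of 50 higher and 3 lower there, and limma-voom 1 higher and 1 lower of 49. The background in edgeR was 2.37% called higher and 1.97% lower. Over all genes DESeq2 called 3010 of 36387 either way and limma-voom 2718 of 25273. Set against young controls, 9 rose and 8 fell of 49 in treated mice, beside 16.7% of all genes called.

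Of 28 genes of lysosomal nutrient sensing and of the factors that bind CLEAR elements, none passed with age in edgeR, with 3 higher and 1 lower at an unadjusted p under 0.05; DESeq2 called 2 higher, Fnip2 and Tfec, and limma-voom 3. None passed with treatment in edgeR, with 5 higher and 4 lower unadjusted. DESeq2 called 3 higher and limma-voom 2 higher and 2 lower. At an unadjusted p under 0.05 in edgeR stood 11.7% of all genes with age and 24.7% with treatment. Treated mice against young controls gave 5 that rose and 3 that fell of 28, beside the same 16.7%. Fnip2, a partner of folliculin in amino acid sensing, had 452, 347 and 351 CPM in treated libraries, against 215, 236 and 198 CPM in young control libraries (0.82 ± 0.12, adjusted p = 0.00364). Tfec, the MITF-family factor known from macrophages and RPE, differed by 1.08 ± 0.21 (adjusted p = 0.0107), and Deptor, an inhibitor of mTOR, by 0.88 ± 0.21 (adjusted p = 0.0216). Of 35 further autophagy regulators, none passed with age or with treatment in edgeR, with 2 higher and 1 lower, and 4 higher and 2 lower, at an unadjusted p under 0.05; DESeq2 called none with age and 2 higher with treatment, Rb1cc1 and Uvrag, and limma-voom called 2 higher and 1 lower with age and Rb1cc1 higher with treatment. Here 4 rose and 3 fell of 35 in treated mice against young controls, again beside 16.7%. Vamp8, a fusion protein of autophagosome and lysosome, differed by -0.64 ± 0.15 (adjusted p = 0.0187), and Uvrag, a Becn1 partner, by 0.35 ± 0.09 (adjusted p = 0.0275).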

How the data were processed

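RNA of mouse RPE was measured in 9 libraries. Per the submitters' processing notes the authors used Bowtie2 2.3.4.1, featureCounts 1.6.0 and DESeq2, whose version is not given in the sources used here. These notes name GRCm38, while the chromosome versions in the table are those of GRCm39: gene coordinates are the table's, promoter windows those of RefSeq's GRCm38.p6, and none was converted. The deposited raw counts per gene were tested. The deposited FPKM values, so named per the file headers, were found to equal the count divided by gene span and library total (relative tolerance 1e-06), and were used only to set V-ATPase paralogs side by side. Length equalled the whole span, introns included, for all 40200 genes with 1 span. Of the 54 members, 21 overlap another gene; whether counting used strand is not given in the sources used here.

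Genes were kept by edgeR's filterByExpr (25273, all members included), scaled by TMM and fitted over 9 libraries without covariates by edgeR 4.0.16's quasi-likelihood method with robust estimation (R 4.3.3). Each SE equals the absolute log2 fold change over the square root of F. Alternatives were other size factors, filters and thresholds, DESeq2 1.42.0, limma-voom (limma 3.58.1), a replicate block, fits of 2 groups, left-out libraries and only genes without overlap. The members and lists were chosen with earlier results of these data known. Values in every library are given for Atp6v1h, for called members and for the 3 members of smallest p per subset and comparison; of the further lists, the 3 genes of smallest p per comparison could be named.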

Additional observations from a re-analysis of the deposited data

How the results depend on the processing

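Samples of the same replicate number were not fitted as pairs. Their deviations from group means correlated from -0.079 to 0.148, and only 1 of 9 pairs exceeded 0.1. Such correlations cannot show whether these samples were handled together. With the replicate number as a block, 1 member was higher with age, 0 with treatment and 6 in treated aged over young controls, with 4 lower there; Ulk1 then had adjusted p = 0.0671 with treatment and Atp6v0d2 0.0842 with age in edgeR's test. The main counts were 2 higher and 0 lower with age, 1 and 0 with treatment, and 8 and 3 in treated aged over young controls. With age, the higher count was 4 in fits of only the 2 groups compared and in limma-voom, and 1 without both treated replicate 2 and young replicate 1; the lower count was 2 in the 2-group fit, 1 in DESeq2 and 2 in limma-voom. With treatment, the higher count was 2 with relative log expression size factors and with only genes that overlap no other gene, 3 with upper quartile size factors, at least 1 CPM in 3 libraries, DESeq2, limma-voom or an adjusted p under 0.1, and 0 with total counts, the 2-group fit, or without both libraries named above. In treated aged over young controls the 2-group fit gave 3 higher and 0 lower, and the fit without both libraries 4 higher. With 1 library left out, the counts ranged from 0 to 2 higher with age, from 0 to 5 higher and 0 to 1 lower with treatment, and from 5 to 10 higher and 1 to 4 lower in treated aged over young controls. The extremes of 5 and 10 with treatment and against young controls were both those without treated replicate 3. Among left-out fits, that without treated replicate 3 also called the most genes over all in these 2 comparisons, 4092 and 6086. The causes were not tested, though a fit of 2 groups or 8 libraries has fewer samples. Of the fold changes of named members under alternatives, 534 kept direction and side of the threshold, 34 passed newly, 69 lost their call and 3 changed sign. The 3 were those of Atp6v1h with age, at 0.02 with total counts and 0.00 without young replicate 1 and without both libraries, against -0.02; leaving out 1 library it ranged from -0.03 to 0.00. Over all genes, edgeR called 424, 1098 and 4222 genes either way with age, with treatment and in treated aged over young controls. The 2-group fit called 1239, 178 and 1041, and the block 317 with treatment. In the same order DESeq2 called 930, 3010 and 5818 and limma-voom 2031, 2718 and 3831. Genes without overlap gave 611 with treatment and 2171 against young controls, the fit without both libraries 1794 against young controls, and left-out libraries 73 to 688, 25 to 4092 and 1775 to 6086. With 3 libraries per group, the SE of log2 fold changes limits what small differences can be called.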
